A study of Mus musculus with 8 samples.

Results

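ATP-binding cassette (ABC) genes were compared between small intestinal adenomas and wild-type small intestine of the mouse. The members are the protein-coding mouse genes whose GENCODE M21 symbol is Abc, a letter from a to g, a number and at most a final a or b, and 50 of the 39179 genes in the count table carried such a symbol. Of these, 43 passed the filter on low counts and were tested among 18345 genes. The other 7, Abca4, Abca12, Abca15, Abca16, Abca17, Abcb5 and Abcb11, had between 0 and 38 counts summed over the adenomas and between 0 and 14 over wild type, too few for a test. The symbol rule leaves out 3 ABC proteins with other names, Cftr, Tap1 and Tap2, which are described at the end. It also takes in Abce1, Abcf1, Abcf2 and Abcf3, which carry the ATP-binding domains but no membrane segments and act in translation, so that the set is wider than transporters alone.

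The 5 adenoma libraries came from small intestinal adenomas of mice with the genotype VilCreER+ APCfl/+, that is with 1 floxed and 1 normal Apc allele. The 3 wild-type libraries came from small intestine of VilCreER+ mice. All mice were on an inbred C57BL6/J background, all carried Cre fused to an oestrogen receptor domain under the villin promoter, which is active in intestinal epithelium, and tissue of both groups had been exposed to tamoxifen in the animal. The series text describes the adenoma mice as aged and the wild-type tissue as whole intestine. Ages in weeks or months are not stated in the labels, which also do not say whether each library is a separate mouse, so p-values measure the spread between these libraries, which may be partly technical.

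ABC proteins use ATP to move substrates across membranes. In enterocytes, the absorptive cells of the small intestine, those of the apical membrane return plant sterols, drugs and conjugated toxins to the lumen, while others on the basolateral membrane load cholesterol onto lipoprotein particles or pass conjugates to the blood. Further members serve mitochondria, peroxisomes and lysosomes in all cell types.

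Total counts ran from 18040301 to 28343915 per library, and values are CPM, that is counts scaled to a common library size. Apc stood at 132 to 159 CPM in adenomas and 191 to 211 CPM in wild type. Xist was at 432 to 761 CPM in adenomas 2 to 5 but at 1.17 CPM in adenoma 1 and 1.56 to 1.75 CPM in wild type, so that the sex pattern and the group largely coincide. In adenoma 2 Hoxb13, a gene of the hindgut, stood at 246 CPM, and did not pass 0.894 CPM elsewhere, and Gata4, a factor that marks the proximal small intestine, at 0.470 CPM, against 68.4 to 101 CPM in the other 7 libraries. Pancreatic acinar genes summed to 437 CPM in adenoma 5 and 589.97 CPM in wild type 1, and to at most 3.15 CPM elsewhere. Enterocyte markers, all 12 of them detected, summed to 539 to 14187 CPM in adenomas and 23639.6 to 35682 CPM in wild type.

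The first sequence below is the stretch between the start sites of Abcg5 and Abcg8, neighbours that are read in opposite directions and that fell together. It lies at chr17:84683012-84683120 (GRCm38.p6) and is printed on the plus strand, from the Abcg5 start at its left end to the Abcg8 start at its right end, with 109 bases between them in RefSeq. RefSeq also lists a second Abcg8 start at 84676302, inside Abcg5, which is the outer start in GENCODE M21. The other sequences are the same length of DNA upstream of Abcc2 (chr19:43782199-43782307, plus strand) and of Abcc4 (chr14:118706220-118706328, minus strand, the outer of 2 RefSeq starts), the efflux genes with the largest fall and the largest rise among those above 10 CPM. The Abcc2 window lies upstream of the RefSeq start at 43782308, while GENCODE M21 begins the gene at 43782192. Capitals mark matches, on either strand, to 3 short motifs. The first is GATAA, the core read by GATA factors, which here lies on the minus strand and so reads TTATC. The next is TATAAA, the TATA box, also on the minus strand and so printed in reverse complement. The last is AGGTCA, the element bound by nuclear receptors.
Abcg5/Abcg8: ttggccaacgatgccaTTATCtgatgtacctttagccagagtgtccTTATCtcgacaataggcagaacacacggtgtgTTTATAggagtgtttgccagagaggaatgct
Abcc2: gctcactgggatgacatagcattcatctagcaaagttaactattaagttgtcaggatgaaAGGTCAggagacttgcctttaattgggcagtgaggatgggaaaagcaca
Abcc4: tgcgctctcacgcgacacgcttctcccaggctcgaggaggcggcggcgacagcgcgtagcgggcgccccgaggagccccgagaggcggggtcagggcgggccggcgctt
The stretch shared by Abcg5 and Abcg8 held 2 GATAA matches, found in 0.788% of 32851 RefSeq promoter windows of this length, while 9.36% held at least 1. It also held 1 TATAAA match, found in 5.90% of windows, and no marked match overlapped another. Among the 38 members with a RefSeq window, 3 held GATAA, namely Abcg5, Abcg8 and Abcb4. The Abcc2 window held 1 AGGTCA, found in 6.39% of windows. The Abcc4 window held none of these letters. None of the 38 members with a RefSeq window held ATCAAAG, the core read by TCF factors, found in 1.32% of all windows. At so low a share, no match among so few members does not show a lack of this core. A match is a description of the letters and not of binding.

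In adenomas Abcg5, Abcg8, Abcc2, Abcb1a and Abcg2 fell, while Abcc4, Abcc1, Abca5 and Abcg1 rose. Abcg5 and Abcg8, which together form the sterol exporter of the apical membrane, had log2 fold changes of -2.56 ± 0.53 and -2.17 ± 0.45 (SE), and Abcc2, an apical exporter of conjugated compounds, fell by 3.35 ± 0.29. Abcc4, an exporter of cyclic nucleotides and prostaglandins, rose by 2.29 ± 0.21 and Abcc1, an exporter of glutathione conjugates, by 1.49 ± 0.14. Of the 43 members tested, 10 were called higher and 17 lower in adenoma, meaning an adjusted p below 0.05 by edgeR's quasi-likelihood test with Benjamini-Hochberg adjustment over all genes tested. Over all genes tested, 30.3% were called higher and 27.8% lower, 58.1% in all. These shares are the background for each count of called genes given below. The members' share called, 62.8%, lay near that background, with 23.3% of members higher and 39.5% lower. Their median log2 fold change was -0.40, against 0.04 over all genes. A test against a factor of 2 called 13 members, 5 higher and 8 lower, or 30.2% of those tested, against 13.2% of all genes. The adenoma and wild-type libraries did not overlap for 27 members, or 62.8%, against 56.9% of all genes.

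**Figure D1:**
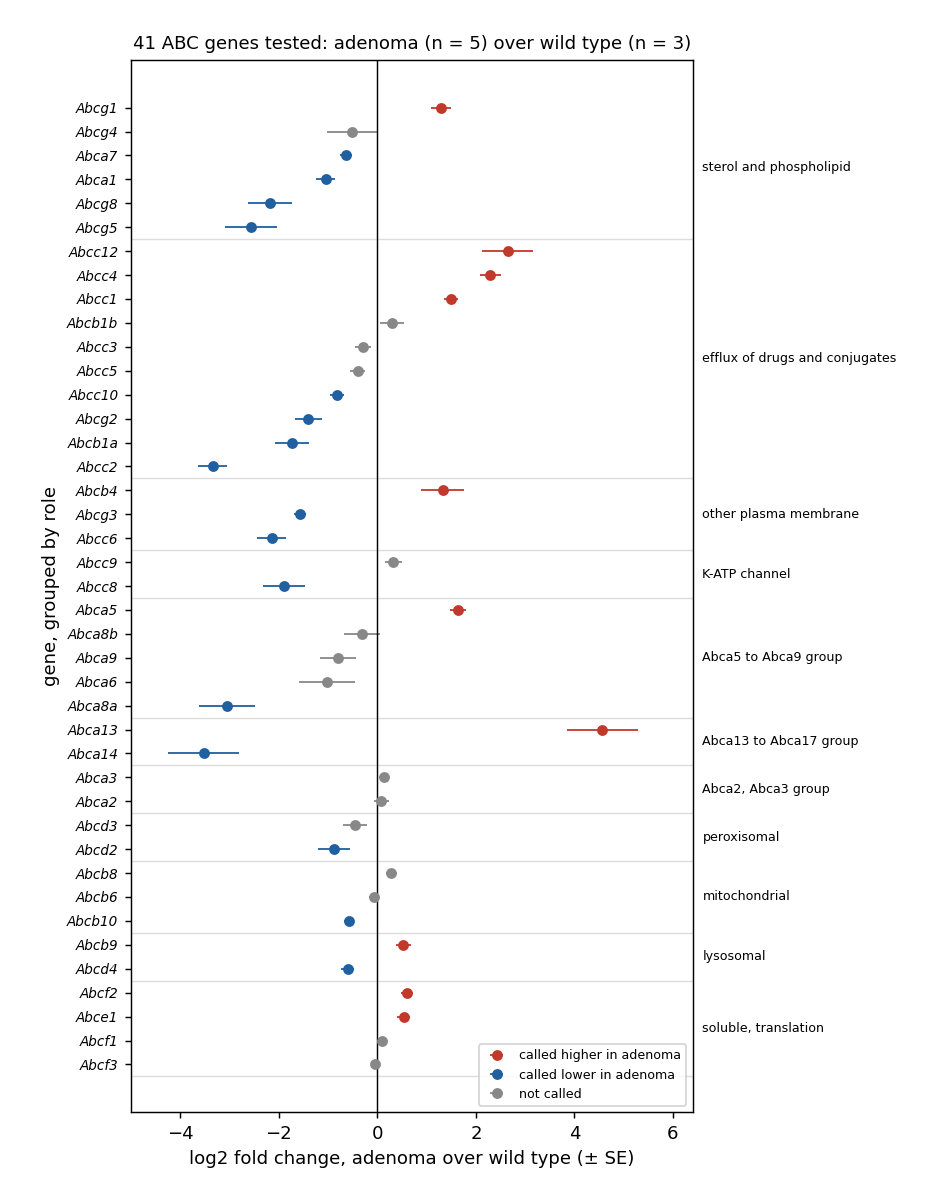
Log2 fold change of 41 tested ABC genes, adenoma (n = 5) over wild type (n = 3), with its SE as a bar, grouped by role. Red points were called higher and blue points lower in adenoma, and Abca13 at 4.57 and Abca14 at -3.53 lie farthest out.

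These calls depend on how libraries are scaled and on which libraries enter. When libraries were set to the same total over 10 genes of all gut epithelium, 8 of which were themselves called higher in adenoma, the median over all genes shifted by -0.79 on the log2 scale, and under this pan-epithelial scaling 5 members were then higher and 27 lower. Relative to the median of all genes, the members' median was -0.44 in the main scaling and -0.49 in that one. With the Xist and Y pattern as a covariate, 6 members were called higher and 9 lower, and there the group term rests on adenoma 1, the adenoma that shares the pattern of the wild-type libraries. The Xist and Y covariate was set by Xist alone, above 50 CPM or not, and no Y gene entered it. Adenoma 1 lay outside the wild-type range on the called side for all 27 called members, and adenoma 2 for 26. Both libraries entered the fit that made these calls, so these counts are no separate check of them.

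Sterol and phospholipid exporters had 6 members tested, of which 1 rose and 4 fell, and the median log2 fold change was -0.85. Abcg5 (ENSMUSG00000040505, GRCm38 chromosome 17, 84658234 to 84683011, minus strand) was at 61.9, 11.03, 83.8, 47.3 and 35.5 CPM in adenomas 1 to 5, against 339, 248 and 259 CPM in wild type 1 to 3. The lowest wild-type library was above the highest adenoma, and adenoma 2 was far below the other adenomas. Abcg8 (ENSMUSG00000024254, chromosome 17, 84676302 to 84700333, plus strand) was at 66.2, 16.2, 90.6, 54.2 and 42.8 CPM in adenomas 1 to 5, against 288, 214 and 228 CPM in wild type. The libraries fell in nearly the same order for both genes, with adenoma 3 the highest and adenoma 2 the lowest of the adenomas and wild type 1 the highest of all. Adjusted p was 0.00432 for Abcg5 and 0.00411 for Abcg8, and both calls were lost with the Xist and Y pattern as a covariate (adjusted p = 0.139 and 0.132). In whole tissue, fewer enterocytes and less of an RNA per enterocyte cannot be told apart, and the enterocyte marker sum moved with these genes, being also lowest in adenoma 2 and highest in adenoma 3 among adenomas. That sum is led by its most abundant genes. Of the 12 markers 0 were called higher and 7 lower, against 30.3% and 27.8% of all genes. Not all of them fell, since Alpi had a log2 fold change of 1.19 and was not called (adjusted p = 0.422). The part of enterocyte content in the fall of Abcg5 and Abcg8 was not tested. Some exons of both genes overlap on opposite strands, 82 bases in all, and the library kit did not keep strand.

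Abca1, which loads cholesterol and phospholipid onto apolipoprotein A-I, was at 130.04, 229, 132, 124 and 152 CPM in adenomas 1 to 5, against 324, 313 and 317 CPM in wild type. All adenomas were below all wild-type libraries, with adenoma 2 closest to them. The fold change was -1.05 ± 0.20 on the log2 scale (adjusted p = 0.00211). Abcg1, which passes cholesterol to high-density lipoprotein and is known from macrophages, moved the other way. It was at 24.1, 34.8, 18.3, 22.4 and 22.5 CPM in adenomas, against 10.3, 10.8 and 8.84 CPM in wild type, and rose by 1.29 ± 0.21 (adjusted p = 8.96e-04). Adenoma 2 was again the highest adenoma. The call was lost under pan-epithelial scaling (log2 fold change 0.56, adjusted p = 0.181). Macrophage markers, with 1 of 8 higher and 1 lower, summed to 749 CPM in adenoma 2, to 301 to 448 CPM in the other adenomas and to 355 to 438 CPM in wild type, with none of the 8 at 0, and their part in the Abcg1 values was not tested. Abca7, a close relative of Abca1 that also moves phospholipids, averaged 48.2 ± 7.16 CPM in adenoma and 75.2 ± 4.45 CPM in wild type (SD, n = 5 and 3; adjusted p = 0.00223). Abcg4, a relative of Abcg1 best known from brain, stayed below 1 CPM in every library and was not called.

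Transporters of drugs and conjugates had 10 members tested, of which 3 rose and 4 fell, and the median log2 fold change was -0.34. The members that fell include the main apical pumps. Abcc2 (ENSMUSG00000025194, chromosome 19, 43782192 to 43840740, plus strand) was at 57.3, 64.4, 119, 49.5 and 73.2 CPM in adenomas 1 to 5, against 828, 531 and 855 CPM in wild type. The groups were far apart, and the adjusted p was 5.44e-05. Abcb1a (ENSMUSG00000040584, chromosome 5, 8660077 to 8748575, plus strand), one of the mouse genes for P-glycoprotein, was at 154, 95.7, 202, 106 and 108 CPM in adenomas, against 547, 227 and 551 CPM in wild type. Wild type 2 lay only just above adenoma 3, and the log2 fold change was -1.73 ± 0.34 (adjusted p = 0.00279). Abcg2, the breast cancer resistance protein, which exports urate and many drugs at the apical membrane, was at 50.4, 29.9, 63.5, 33.7 and 27.6 CPM in adenomas, against 122, 109 and 93.3 CPM in wild type. It fell by 1.40 ± 0.27 (adjusted p = 0.00281), with no overlap of the groups. Abcc10, an exporter found mainly at basolateral and inner membranes, fell by 0.81 ± 0.15 (adjusted p = 0.00164), to 17.8 ± 1.82 CPM in adenoma, against 31.3 ± 6.72 CPM in wild type. With the Xist and Y pattern as a covariate the calls of Abcb1a and Abcg2 were lost (adjusted p = 0.105 and 0.116), at log2 fold changes of -1.52 and -1.10.

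The 3 members that rose were Abcc4, Abcc1 and Abcc12. Abcc4 (ENSMUSG00000032849, chromosome 14, 118482692 to 118706219, minus strand) was at 87.1, 103, 63.3, 60.6 and 78.6 CPM in adenomas 1 to 5, against 13.1, 16.9 and 18.005 CPM in wild type. Its lowest adenoma was more than 3 times its highest wild-type library, with an adjusted p of 6.21e-05. Abcc1 (ENSMUSG00000023088, chromosome 16, 14361558 to 14475737, plus strand) was at 103, 104, 79.8, 93.6 and 107 CPM in adenomas, against 27.9, 38.5 and 37.5 CPM in wild type. The groups were again well apart (adjusted p = 8.21e-05), and the calls of both genes held in every alternative tried. Abcc12, a member of uncertain substrate, rose by 2.65 ± 0.51 (adjusted p = 0.00247), but only to 1.26 ± 0.605 CPM in adenoma, against 0.196 ± 0.0809 CPM in wild type, and its call was lost with the Xist and Y covariate (adjusted p = 0.0772). Abcc3, a basolateral exporter of glucuronides and bile salts, averaged 118 ± 23.7 CPM in adenoma and 145 ± 13.4 CPM in wild type and was not called (adjusted p = 0.156). Abcc5, an exporter of cyclic nucleotides and nucleotide analogues, was not called either (log2 fold change -0.40 ± 0.16, adjusted p = 0.0562). It was called lower in 6 of 20 alternatives, among them upper-quartile scaling, pan-epithelial scaling, DESeq2 and the omission of adenoma 2 (adjusted p = 0.00605 for the omission). Leaving out that library raised the genes called lower to 6092 of 18195, from 5099 of 18345.

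Abcb1b, the other mouse gene for P-glycoprotein and the neighbour of Abcb1a on chromosome 5, did not follow it. It was at 5.73, 6.86, 4.87, 4.97 and 4.94 CPM in adenomas 1 to 5, against 4.43, 2.95 and 6.002 CPM in wild type. The groups overlapped, and the log2 fold change of 0.29 ± 0.24, which turned to -0.46 under pan-epithelial scaling, did not pass the test (adjusted p = 0.317). Per kilobase of exons, Abcb1b stood at 0.0165 to 0.0491 of the Abcb1a level in adenomas and at 0.00556 to 0.00893 of it in wild type (exact permutation test of the log2 ratio, two-sided p = 0.0357 with n = 5 and 3, the smallest this design allows, and the same adjusted over the 2 pairs compared). Reads were short, and 26.4% of the 36-base windows of Abcb1a transcripts, against 16.0% of those of Abcb1b, also occur in transcripts of another gene, so some of their reads could not be assigned to 1 gene.

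**Figure D2:**
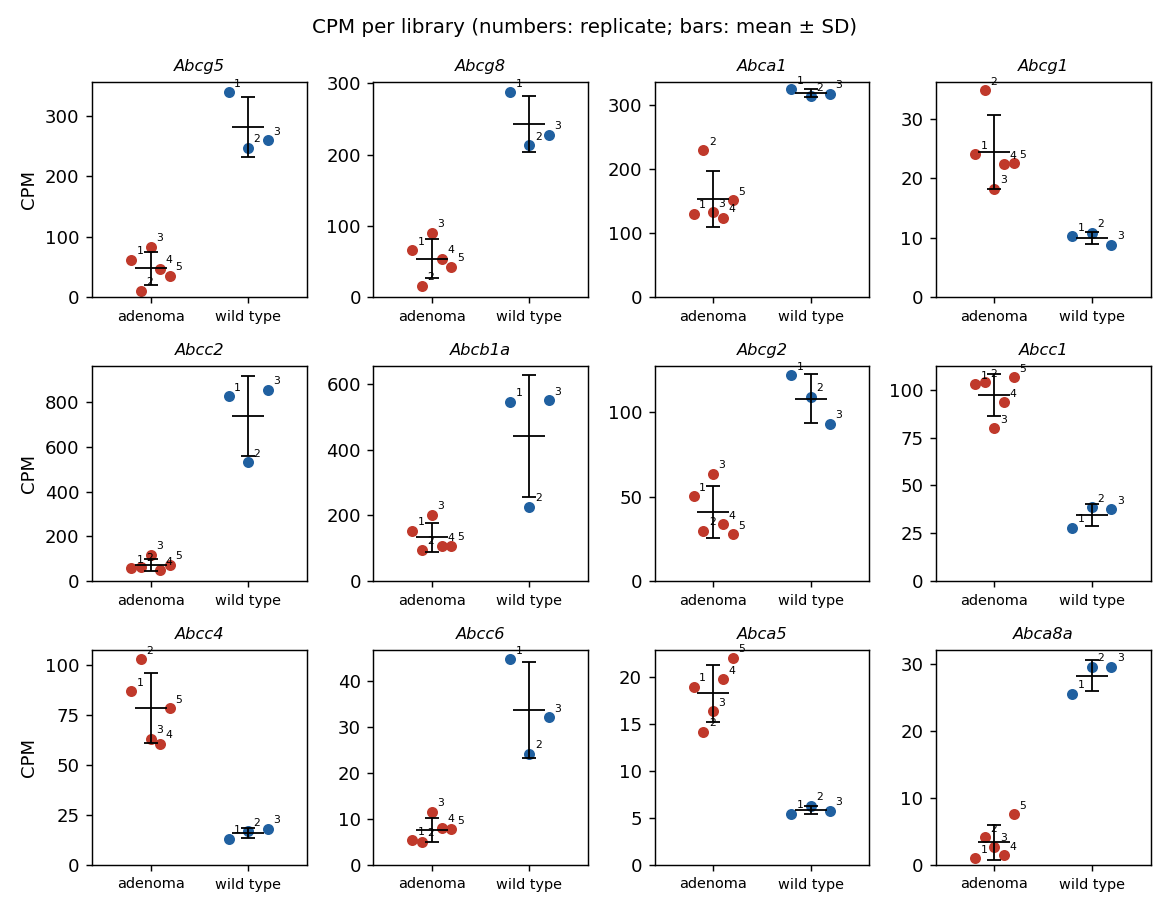
CPM of 12 ABC genes in each library, adenoma (red, n = 5) left of wild type (blue, n = 3), with replicate numbers beside the points and black bars for the mean ± SD. Each axis starts at 0, and in all 12 panels the groups do not overlap. The 12 genes were picked from the called members. Groups did not overlap for 62.8% of tested members and 56.9% of all genes.

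The remaining transporters of the plasma membrane had 3 members tested, of which Abcc6 and Abcg3 fell and Abcb4 rose. Abcc6, which drives release of ATP from cells and so the formation of pyrophosphate, was at 5.36, 5.07, 11.6, 8.13 and 7.82 CPM in adenomas, against 44.8, 24.2 and 32.1 CPM in wild type. The groups did not overlap, and it fell by 2.15 ± 0.29 (adjusted p = 4.36e-04). Abcg3, a rodent relative of Abcg2, was at 5.41, 6.10, 5.14, 6.49 and 5.86 CPM in adenomas, against 16.0, 16.4 and 19.5 CPM in wild type. Its values were close together within each group, and it fell by 1.58 ± 0.12 (adjusted p = 3.23e-05). Abcb4, which moves phosphatidylcholine into bile in liver, was at 1.04 ± 0.330 CPM in adenoma and 0.405 ± 0.224 CPM in wild type, with an adjusted p of 0.0277. Leaving out wild type 2, wild type 3 or adenoma 3 ended the call, at adjusted p from 0.0538 to 0.0828, as did analyses with the Xist and Y covariate (0.298) and under pan-epithelial scaling (0.354). Abcb11, the bile salt export pump of liver, and Abcb5 had at most 18 and 2 counts over the adenomas and 6 and 0 over wild type, and no difference was detectable at this depth.

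Subunits of the ATP-sensitive potassium channel split. Abcc8, the sulfonylurea receptor of endocrine cells, was at 0.233, 0.704, 1.07, 0.346 and 0.609 CPM in adenomas, against 2.60, 1.62 and 2.46 CPM in wild type. All values were low but the groups did not overlap, and it fell by 1.90 ± 0.42 (adjusted p = 0.00484). Abcc9, the receptor of vascular smooth muscle and pericytes, averaged 43.1 ± 5.59 CPM in adenoma and 34.4 ± 7.81 CPM in wild type and was not called (adjusted p = 0.126). Its pore partner Kcnj8 rose by 1.56 ± 0.21 (adjusted p = 3.91e-04), to 24.8 ± 1.51 CPM in adenoma, against 8.40 ± 2.78 CPM in wild type. Kcnj11, the pore partner of Abcc8, was too low to be tested. Pericyte and smooth muscle markers had 1 of 8 higher and 3 lower and summed to 624 to 1190.1 CPM in adenomas and 1022 to 1734 CPM in wild type.

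Members of the Abca5 to Abca9 group, which lie side by side on chromosome 11 (109932190 to 110337716, all on the minus strand), went different ways, with 1 of 5 higher and 1 lower. Abca5, a lysosomal member involved in lipid handling, was at 19.0, 14.2, 16.4, 19.8 and 22.1 CPM in adenomas 1 to 5, against 5.45, 6.30 and 5.78 CPM in wild type. It rose by 1.64 ± 0.16 (adjusted p = 9.22e-05), with adenoma 2 the lowest adenoma. Abca8a was at 0.979, 4.09, 2.73, 1.47 and 7.58 CPM in adenomas, against 25.5, 29.5 and 29.6 CPM in wild type. It fell by 3.05 ± 0.57 (adjusted p = 0.00253), and every adenoma lay far below wild type. The neighbours Abca6, Abca8b and Abca9 had log2 fold changes of -1.03, -0.32 and -0.80 and were not called. In each of these 3 genes adenoma 2 was the highest adenoma, so leaving it out lowers their estimates. Without it all 3 were called lower, at log2 fold changes of -1.77, -0.71 and -1.16 (adjusted p = 8.61e-04, 0.00822 and 0.00164). More genes were then called lower over the whole table as well, 6092 of 18195 against 5099 of 18345. With adenoma 2 kept, Abca9 was also called lower under pan-epithelial scaling and by DESeq2 and limma-voom, and Abca6 by limma-voom. Fibroblast markers, with 5 of 7 higher and none at 0, summed to 2677 to 3400.3 CPM in adenomas and 1114 to 1477 CPM in wild type. Their part in the values of this group was not tested.

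In the Abca13 to Abca17 group only 2 of 5 members had enough counts, and they moved in opposite directions. Abca13, a very large member of the family, was at 12.3, 1.69, 6.52, 6.399 and 7.82 CPM in adenomas, against 0.153, 0.223 and 0.491 CPM in wild type. It had the highest log2 fold change of the tested members, 4.57 ± 0.73 (adjusted p = 9.87e-04), and adenoma 2 was the lowest adenoma. Abca14, of the rodent cluster with Abca15 and Abca16 on chromosome 7, was at 0.0932, 0.235, 0.760, 0.303 and 0 CPM in adenomas, against 3.62, 2.17 and 3.76 CPM in wild type. It fell by 3.53 ± 0.72 (adjusted p = 0.00336), although the call was narrowly lost with the Xist and Y covariate (adjusted p = 0.0550). Abca15, Abca16 and Abca17 had at most 5 counts in either group. Abca3, which fills the surfactant-storing bodies of lung, and Abca2, a lysosomal lipid transporter best known from brain, were not called, with log2 fold changes of 0.13 ± 0.09 and 0.08 ± 0.15 that turned to -0.63 and -0.67 under pan-epithelial scaling.

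**Figure D3:**
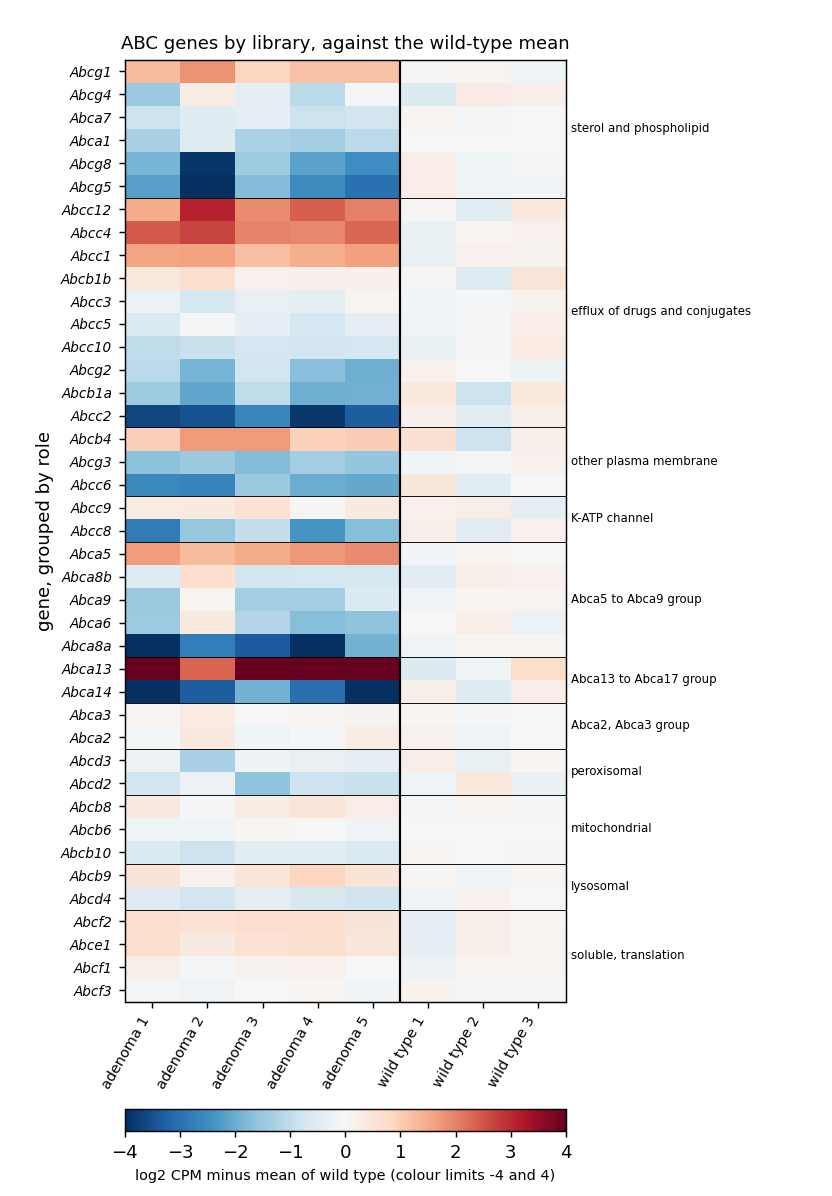
Log2 CPM of 41 tested ABC genes in each library minus the mean of the 3 wild-type libraries, with adenomas left of the black line and roles separated by lines across. Colours are capped at -4 and 4, adenoma 2 is the darkest column for Abcg5 and Abcg8, and it is the palest adenoma for Abca13.

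Peroxisomal members carry fatty acids and their CoA esters into peroxisomes. Abcd3 was at 241, 112, 240.1, 226 and 211 CPM in adenomas, against 325, 227 and 293 CPM in wild type, and was not called (adjusted p = 0.141). Adenoma 2 was well below the other adenomas, which overlapped wild type. Abcd2 was at 1.46 ± 0.5003 CPM in adenoma and 2.68 ± 0.770 CPM in wild type. Its call (adjusted p = 0.0402) was lost in 12 of 19 alternatives, among them the omission of any 1 library other than adenoma 2, at adjusted p from 0.0564 to 0.184. Of 10 genes of peroxisomal oxidation and assembly, 0 were called higher and 6 lower (median -0.70 on the log2 scale). The shares over all genes were 30.3% and 27.8%. The log2 fold change was -1.18 ± 0.20 for Acaa1a, a thiolase of this pathway, and -0.78 ± 0.16 for Pex16, a membrane assembly factor (adjusted p = 0.00135 and 0.00301).

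Among the mitochondrial members Abcb10, which acts in early haem synthesis and iron import, fell by 0.57 ± 0.10 (adjusted p = 0.00171), with 38.4 ± 4.00 CPM in adenoma and 56.9 ± 3.44 CPM in wild type, and just missed the threshold with the Xist and Y covariate (adjusted p = 0.0525). Abcb8, an inner membrane member with a part in iron handling, had a log2 fold change of 0.29 ± 0.12 (adjusted p = 0.0652), which turned to -0.54 under pan-epithelial scaling (adjusted p = 0.00788), and Abcb6, known as a porphyrin carrier, one of -0.07 ± 0.09 (adjusted p = 0.544). A share of 51.5% of the 36-base windows of Abcb6 also occur in transcripts of other gene models. Gm29253, a model of the same strand that covers 55.2% of the Abcb6 exon bases, was not among the genes counted. Its effect on the Abcb6 level was not tested. Among 14 haem and iron-sulfur genes 5 were called higher and 1 lower (median 0.18 on the log2 scale), against 30.3% and 27.8% of all genes. Slc25a37, the mitochondrial iron importer that works with Abcb10, was the lower one, at -1.75 ± 0.19 (adjusted p = 1.37e-04), while Fech, which inserts iron into haem, rose by 0.42 ± 0.07 (adjusted p = 0.00139).

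Lysosomal members moved apart by small amounts. Abcb9, a carrier of peptides into lysosomes, rose by 0.53 ± 0.15 (adjusted p = 0.0146), to 31.5 ± 5.14 CPM in adenoma, against 21.9 ± 2.28 CPM in wild type. Leaving out wild type 2 ended the call (adjusted p = 0.0585), as did leaving out wild type 1 and adenoma 5 together (0.0686), and the direction turned under pan-epithelial scaling (-0.29, adjusted p = 0.155). Abcd4, which with Lmbrd1 passes vitamin B12 out of lysosomes, fell by 0.60 ± 0.13 (adjusted p = 0.00388), to 12.7 ± 1.58 CPM in adenoma, against 19.3 ± 2.19 CPM in wild type. With the Xist and Y covariate neither Abcb9 nor Abcd4 was called (adjusted p = 0.145 and 0.119). Of 7 genes of vitamin B12 uptake and handling, 2 were higher and 4 lower. Cd320, the cell surface receptor for the vitamin bound to transcobalamin, rose by 2.14 ± 0.17 (adjusted p = 3.72e-05), whereas Tcn2, which encodes transcobalamin, fell by 1.31 ± 0.22 (adjusted p = 0.00110).

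Soluble members had 2 of 4 higher and 0 lower, against 30.3% and 27.8% of all genes tested. Abce1, which splits ribosomes after termination, was at 171, 140.1, 164, 172 and 152 CPM in adenomas, against 87.8, 127 and 117 CPM in wild type. It rose by 0.53 ± 0.14 (adjusted p = 0.00939), a call lost with the Xist and Y covariate (adjusted p = 0.0608). Abcf2, of the translation-linked ABCF subfamily, rose by 0.60 ± 0.12 (adjusted p = 0.00306), to 75.7 ± 3.65 CPM in adenoma, against 49.9 ± 9.39 CPM in wild type. Both directions turned under pan-epithelial scaling, at -0.28 and -0.20 with adjusted p of 0.176 and 0.385. Abcf1, which binds the initiation factor eIF2, and Abcf3 were not called, with log2 fold changes of 0.10 ± 0.11 and -0.05 ± 0.09. Of 6 genes of ribosome release and recycling, 2 were higher and 0 lower, a share higher near that of all genes, 30.3%. Eif2s1 rose by 0.77 ± 0.15 and Etf1 by 0.43 ± 0.13 (adjusted p = 0.00221 and 0.0198).

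Levels of different genes were set against each other per kilobase of exons. In wild type the highest were Abcg5 at 104 ± 18.3, Abcc2 at 86.5 ± 21.1, Abcb1a at 80.6 ± 33.9 and Abcg8 at 64.9 ± 10.5 CPM per kb. Abcg5 and Abcc2 did not differ by more than their SDs, and Abcb1a did not differ from either by more than its own SD. In adenomas the highest were Abcd3 at 31.3 ± 8.18, Abcf2 at 29.5 ± 1.42, Abce1 at 26.6 ± 2.27 and Abcb1a at 24.3 ± 8.15 CPM per kb. Abcd3 and Abcf2 did not differ by more than the SD of Abcd3, nor Abce1 and Abcb1a by more than that of Abcb1a, whereas Abcf2 was above Abce1 in all 5 adenomas. Summed over all 50 members, the level was 288 to 391.9 CPM per kb in adenomas and 571 to 720 CPM per kb in wild type. The 4 members that lead in wild type made up 11.6% to 27.0% of that sum in adenomas and 44.1% to 55.3% in wild type. The soluble members made up 24.2% to 28.9% of it in adenomas and 8.71% to 13.8% in wild type. These shares describe composition, since a fall of the leading members raises the share of the others.

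**Figure D4:**
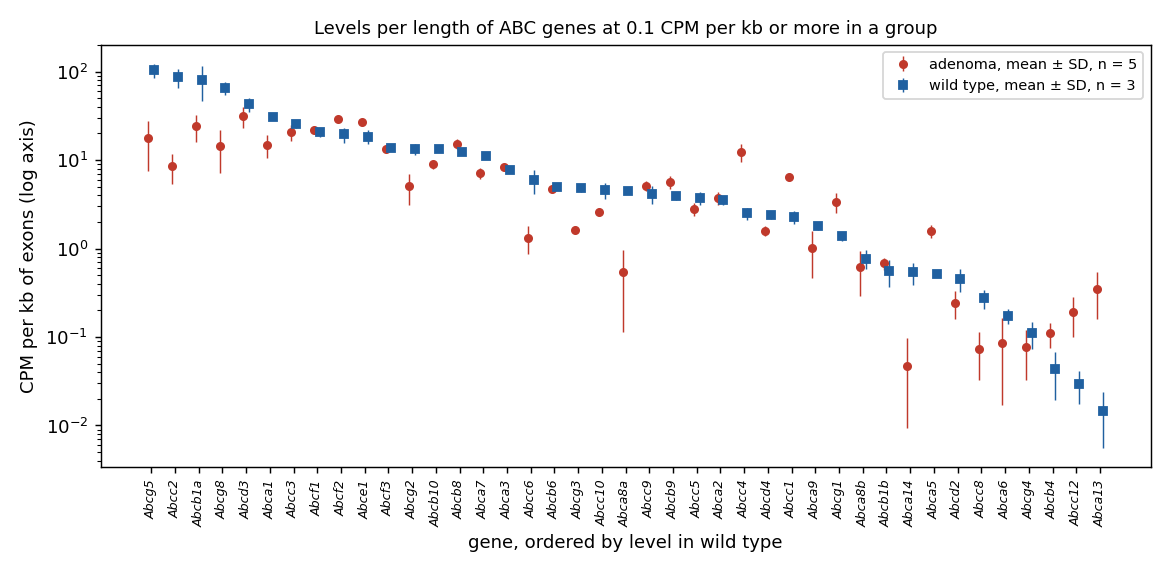
Mean level per kilobase of exons, with SD, of 41 ABC genes that reached 0.1 CPM per kb in a group, in adenoma (red circles, n = 5) and wild type (blue squares, n = 3), on a log axis and ordered by wild type. The leading wild-type genes drop below Abcd3 and Abcf2 in adenoma, Abcc4, Abcc1 and Abcg1 lie above their wild-type level, and 2 bars whose lower end would come near or below 0 are cut at the bottom.

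Spread between libraries was wider in adenoma than in wild type for 32 of the 43 members, or 74.4%, against 65.6% of all genes tested. Abca14, Abca8a, Abcg5 and Abca13 had the largest SD of log2 CPM among the called members over the adenomas, at 1.204, 1.13, 1.12 and 1.04, while Abcf2 and Abcg3 were at 0.07 and 0.13. Adenoma 2 stood farthest from the median adenoma for 23 of the 43 members. The share of all genes for which it did so was not computed, so this is not shown to be particular to the members. Adenoma 2 differed from the mean of the other adenomas by -2.29 for Abcg5, -1.90 for Abcg8 and -2.17 for Abca13, and by 1.33 for Abca8b and 0.77 for Abca1, in log2 CPM. Gata4 was nearly absent from this same library, and a core read by GATA factors lies between Abcg5 and Abcg8. In adenomas 1, 3, 4 and 5 Gata4 was at 68.4 to 84.4 CPM, and Abcg5 and Abcg8 were below wild type there too. Abcb4, whose window also held GATAA, was at 1.41 CPM in adenoma 2 and 0.778 to 1.39 CPM in the other adenomas. The part of Gata4 in these levels was not tested. Over all 5 adenomas Gata4 itself was not called (adjusted p = 0.570).

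Receptors and partner genes of the family moved unevenly. Of 9 genes of sterol uptake and transport, 3 were called higher and 3 lower (median -1.46 on the log2 scale). Npc1l1, the sterol importer that works against Abcg5 and Abcg8, fell by 3.66 ± 0.95 (adjusted p = 0.0125), to 45.5 ± 34.6 CPM in adenoma, against 573 ± 52.7 CPM in wild type, and was at 0.892 CPM in adenoma 2. Genes of the liver X receptors, which switch on sterol exporters, and their targets had 2 of 7 higher and 2 lower. Both of those called higher were targets, whereas those called lower encode a receptor and a receptor partner. The receptor gene was Nr1h3, which fell by 1.51 ± 0.18 (adjusted p = 1.99e-04). Among 8 receptors and factors that govern drug and bile acid transporters, 1 was higher and 3 lower. The log2 fold change was -1.33 ± 0.16 for Nr1i2, the pregnane X receptor, and -1.85 ± 0.32 for Vdr, the vitamin D receptor (adjusted p = 2.32e-04 and 0.00171), while Ahr rose by 0.45 ± 0.12 (adjusted p = 0.0131). For bile acid uptake, 4 of 6 genes were tested, with 1 higher and 2 lower. Slc51b and Slc51a, the subunits of the basolateral bile acid exporter, had log2 fold changes of -2.67 ± 0.46 and -2.34 ± 0.79 (adjusted p = 0.00175 and 0.0342). Slc10a2, which takes bile acids up from the lumen, rose by 1.59 ± 0.44 (adjusted p = 0.0131), to 3.17 ± 0.732 CPM in adenoma, against 1.05 ± 0.695 CPM in wild type.

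The 3 ABC proteins named otherwise had 0 higher and 2 lower. Tap1 and Tap2, which carry peptides to class I molecules, had log2 fold changes of -1.47 ± 0.19 and -1.10 ± 0.09 (adjusted p = 2.97e-04 and 4.58e-05). Cftr, the chloride channel of the family, was at 258, 35.4, 254, 336 and 250.4 CPM in adenomas 1 to 5 and averaged 194 ± 23.4 CPM in wild type. Apart from adenoma 2, all adenomas were above the wild-type mean, and Cftr was not called (adjusted p = 0.755).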

How the data were processed

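RNA of 5 adenoma and 3 wild-type libraries was extracted with Qiagen RNeasy kits, made into TruSeq v2 libraries, which do not keep strand, and read as short paired ends, per the labels' protocols. The authors deposited raw counts per Ensembl gene. FastQC, TopHat2, HTSeq and build GRCm38 are named in the submitters' processing notes. Their versions, the annotation and the strand setting: not given in the sources used here. Positions and exon lengths come from GENCODE M21 (GRCm38), and promoter sequences from RefSeq (GRCm38.p6), where 38 of 50 members matched.

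Counts were tested with edgeR 4.0.16 in R 4.3.3 (filterByExpr, TMM, robust quasi-likelihood fits, Benjamini-Hochberg over 18345 genes, threshold 0.05, glmTreat against a factor of 2). SE is the log2 fold change over the square root of F. Fits were tested on simulated data. Log2 CPM uses a prior count of 2. DESeq2 1.42.0 and limma 3.58.1 (voom) were alternatives, with other scalings, filters, a replicate block, a sex pattern covariate and omitted libraries. The covariate, named for Xist and Y, was set by Xist alone. Libraries of a group differed beyond sampling noise (chi-square per degree of freedom 20.1 to 149). Members and lists were chosen with earlier results of these data known. Values in every library are given for called members at 1 CPM or more with an absolute log2 fold change of at least 1, for the Abcb1a/Abcb1b and Abcg5/Abcg8 pairs, and for some others chosen after their values were seen (Abce1, Abcd3 and Cftr). Of each related list, up to 3 members with the smallest adjusted p are named. Gata4 was chosen after its values were seen. Single values of 2 tested members and of some related genes are not reported here, though the counts include them.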

Additional observations from a re-analysis of the deposited data

Results flagged for a closer look

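In 4 of the 41 tested members considered here, 1 adenoma stood apart from the other 4 by more than Dixon's critical value. Chance alone gives this in about 1 of 20 groups, and the share over all genes was not computed. In all 4 members the adenoma was adenoma 2. This library held 229 CPM of Abca1, against 124 to 152 CPM in the other adenomas. For Abca6 it was at 1.22 CPM, against 0.216 to 0.357 CPM, and for Abca8b at 8.92 CPM, against 3.31 to 3.87 CPM. It was the low library for Abcd3, at 112 CPM against 211 to 241 CPM. The library also held the Hoxb13 and Gata4 levels given above, and their part in these values was not tested.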

How the results depend on the processing

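Of 853 member values under the alternatives, 774 kept direction and side of the threshold, 34 lost a call, 28 gained one and 17 changed sign. Of the 27 called members, 13 kept their call in every alternative that gave a value. Leaving out 1 library gave 8 to 11 members higher, 16 to 22 lower, 8 to 16 past a factor of 2 (8 without wild type 3) and 8664 to 12276 genes called in all. Pan-epithelial scaling gave 5 members higher and 27 lower, with 9.66% of all calls higher, against 52.2% in the main scaling, 46.5% with upper-quartile and 58.0% with total-count scaling. The Xist and Y covariate gave 6 higher, 9 lower, 6 past a factor of 2 and 5372 genes. The replicate block gave 7 members higher, 15 lower, 7 past a factor of 2 and 6549 genes, with 5 members losing their call (Abcb4, Abcb9, Abcd2, Abcd4 and Abce1), but same-numbered libraries did not deviate together (correlations -0.02, 0.05 and 0.06), so the numbers were not taken as pairs. Without wild type 1 and adenoma 5, 6 members passed a factor of 2. The cause of these moves was not tested, though fewer libraries or more terms leave fewer degrees of freedom. Signs turned under pan-epithelial scaling for Abca2 (-0.67), Abca3 (-0.63), Abcb1b (-0.46), Abcb8 (-0.54), Abcb9 (-0.29), Abcc9 (-0.46), Abce1 (-0.28), Abcf1 (-0.72) and Abcf2 (-0.20). Near 0, they turned for Abca2 with the covariate (-0.061) and when genes under 5 CPM were dropped (-0.020), for Abcf1 when those genes were dropped (-0.0093), for Abcb6 with total counts (0.0099), and for Abcf3 with total counts (0.029), no filter (0.013), without wild type 1 (0.023, in a range of -0.087 to 0.023 over single omissions) and without wild type 1 and adenoma 5 (0.034). Depth limits the 7 untested members, for which no difference was detectable.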

Other observations

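The Abcg8 level per kilobase of exons was 0.774 to 1.07 of the Abcg5 level in adenomas and 0.615 to 0.635 of it in wild type, so that the groups did not overlap and the fall of Abcg5 was the larger. The difference of the log2 ratio, adenoma minus wild type, was 0.46 (exact permutation test, two-sided p = 0.0357 with n = 5 and 3, the smallest this design allows, and the same adjusted over the 2 pairs compared). The highest ratio, 1.07, was that of adenoma 2, which had the fewest counts of both genes, 346 for Abcg8 and 235 for Abcg5. The 82 bases of exon that the genes share on opposite strands may count toward either gene.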
